A study of Danio rerio with 24 samples.

Results

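In all, 10 genes of the visual cycle and of retinoic acid metabolism were followed in the eyes of developing zebrafish: *rpe65a*, *rlbp1b*, *rgra*, *rdh5*, *rdh8a*, *stra6*, *rbp3*, *aldh1a2*, *aldh1a3* and *cyp26a1*. Their probes were found by the RefSeq accessions listed in the scanner output. This gave 13 of the 43603 probes, for 9 of the 10 genes, and no probe carried an accession of *rbp3*, the retinoid carrier between the photoreceptors and the pigment epithelium. Zebrafish of the AB line were exposed from 48 hpf to mebendazole (MBZ), an antiparasitic benzimidazole, or to BBC, each at 0.3 μM. BBC has the same benzimidazole carbamate core as MBZ and carries in addition a butyl ester on the benzoyl ring. It was the control at every time, so no vehicle or untreated eyes were compared here. Eyes were collected after 12, 24, or 36 h of exposure, at 60, 72, or 84 hpf. Each sample was a pool of the eyes of many zebrafish, hybridized to 1 array with 1 colour, and each of the 6 conditions had 4 arrays.

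Vision needs a steady supply of 11-cis retinal, the light-absorbing part of the visual pigments. In the visual cycle, all-trans retinal released in the photoreceptors is reduced, stored as esters, isomerized in the retinal pigment epithelium (RPE) and oxidized again, and Müller glia hold a part of this machinery. The same vitamin A is also the source of retinoic acid, which enzymes make and break down in separate domains of the eye and which patterns the dorsal and ventral retina. These steps are background to the genes below and were not measured.

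Levels are log2 signals of a probe, set against the 75th percentile over the probe spots of its array, so that a difference of 1 is a 2-fold difference. They compare samples for 1 probe, never a probe with another. All 13 probes were well above background on all 24 arrays and none was saturated. An uneven spot left the probe A_15_P446290 of *rlbp1b* without a value in MBZ replicate 3 at 36 h, and its values at that time rest on 3 MBZ arrays. At 36 h, BBC replicate 3 had 540 uneven spots, MBZ replicate 1 had 426 and MBZ replicate 3 had 441. No other array of the series had more than 56. Over the arrays, 66.5% to 76.7% of the probes were well above background. The 75th percentile of the signal lay between 437 and 1433, and it was lowest at 24 h in both compounds. Each exposure time had its own scan day and its own slides. The scan day, the exposure time and the age therefore cannot be told apart. The fish were kept under 14 h of light and 10 h of dark, so the ages of 60 and 84 hpf lie 24 h apart, at the same hour of that cycle, and 72 hpf lies 12 h from both. In comparisons with 72 hpf the hour of the cycle cannot be told apart from the age either. On every slide MBZ arrays took positions 2 and 4 and BBC arrays positions 1 and 3, and the position cannot be told apart from the compound. As whole eyes were pooled, fewer cells of a type and less RNA per cell cannot be told apart in any value below.

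Of all tested probes, 64.4% in MBZ eyes and 66.7% in BBC eyes changed between 60 and 84 hpf. Between compounds 0.321% to 5.62% differed, depending on the exposure time. As among these probes, calls among the members were common between ages and rare between compounds. Shares of all probes below are taken over tested probes, not over the whole array. Between 60 and 84 hpf all 9 probes of *rpe65a*, *rgra*, *rdh5*, *rdh8a*, *rlbp1b* and *stra6* rose in MBZ eyes, and all 9 also rose in BBC eyes. The gene *aldh1a3* and the probe A_15_P162866 of *cyp26a1* fell in both. MBZ and BBC eyes, by contrast, differed past the threshold in 1 probe at 1 exposure time, A_15_P446290 of *rlbp1b* at 36 h. The courses of the leading probes, those with the highest mean of their gene over the 24 arrays, are plotted by age and compound.

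**Figure D1:**
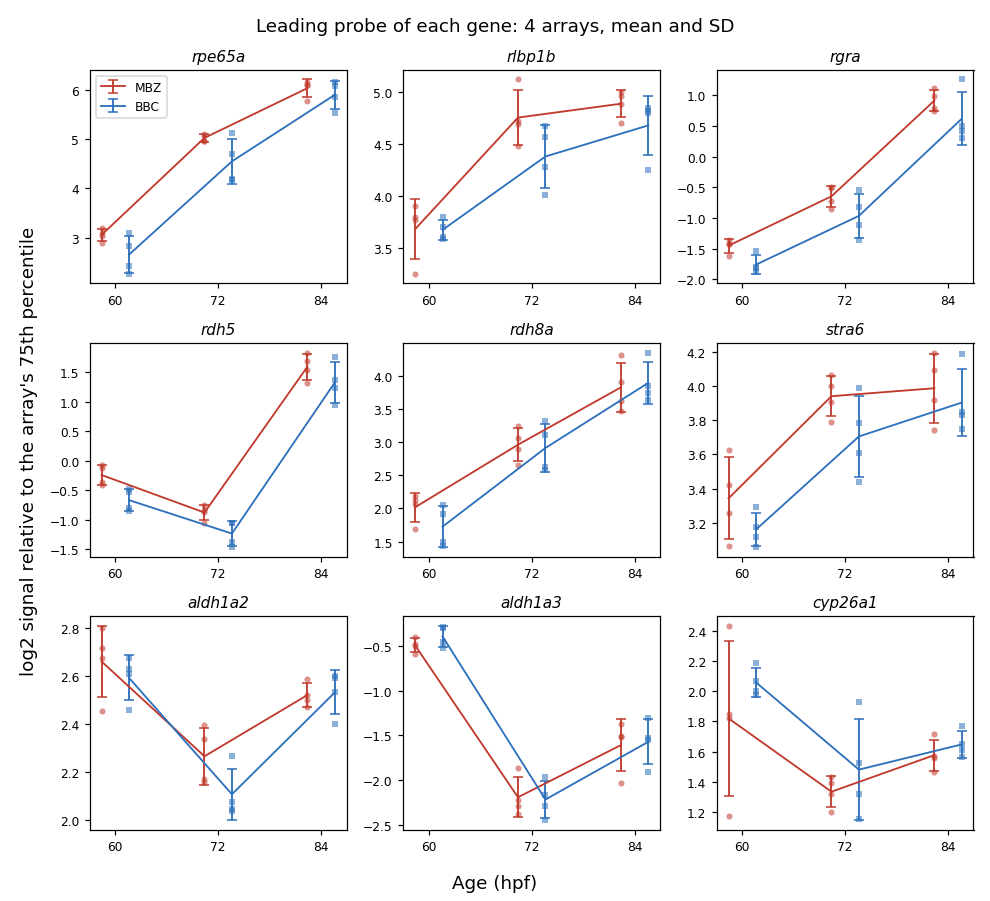
Log2 signal over the array's own 75th percentile (y axis, a separate scale in each panel) against age in hpf (x axis) for the leading probe of each gene, in MBZ (red circles) and BBC (blue squares) eyes. Points are single arrays, and lines join means with SD over 4 arrays. *rpe65a* and *rgra* climb at each age, *rdh5* is lowest at 72 hpf, and *aldh1a3* is highest at 60 hpf in both compounds.

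The first question was whether MBZ changed these genes relative to BBC at the same dose and time. It was asked of the 13 probes, the members counted below, at 3 exposure times, 39 differences in all, each from a limma fit over the 24 arrays with p-values adjusted over all tested probes and a probe called at an adjusted p under 0.2. At 12 h no member was called, and 0.321% of all tested probes were. At 24 h no member was called either, again beside 0.321% of all probes. At 36 h 1 of the 13 was called, and 5.62% of all probes were. At an unadjusted p under 0.05, limma gave 1, 5 and 1 members at 12, 24, and 36 h, beside 5.03%, 4.63% and 13.3% of all probes. A rank product over all pairs of arrays, the kind of test that the study used, depended on how it was permuted. With values permuted within arrays it called no member at any time, beside 2.32%, 1.67% and 2.6% of the probes with 8 values at 12, 24, and 36 h. With ranks permuted independently within each of the 16 pairs it called 6 and 8 of 13 members at 12 and 24 h, beside 25.9% and 24.3% of these probes, and 2 of 12 at 36 h, beside 28.7%. The pairs share arrays, so the ranks of a probe in different pairs are not independent. The first scheme was chosen after the counts of the second had been seen. Neither could be computed for the called *rlbp1b* probe at 36 h. The differences were higher in MBZ for 10, 11 and 9 of the 13 members, while 52.3%, 46.1% and 47.1% of all probes were higher in MBZ. Their median was 0.15, 0.25 and 0.05 on the log2 scale, beside 0.01, -0.01 and -0.01 for all probes. These counts take the probes of 1 gene separately. By the leading probe of each gene, 7, 8 and 5 of 9 genes were higher in MBZ at 12, 24, and 36 h.

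**Figure D2:**
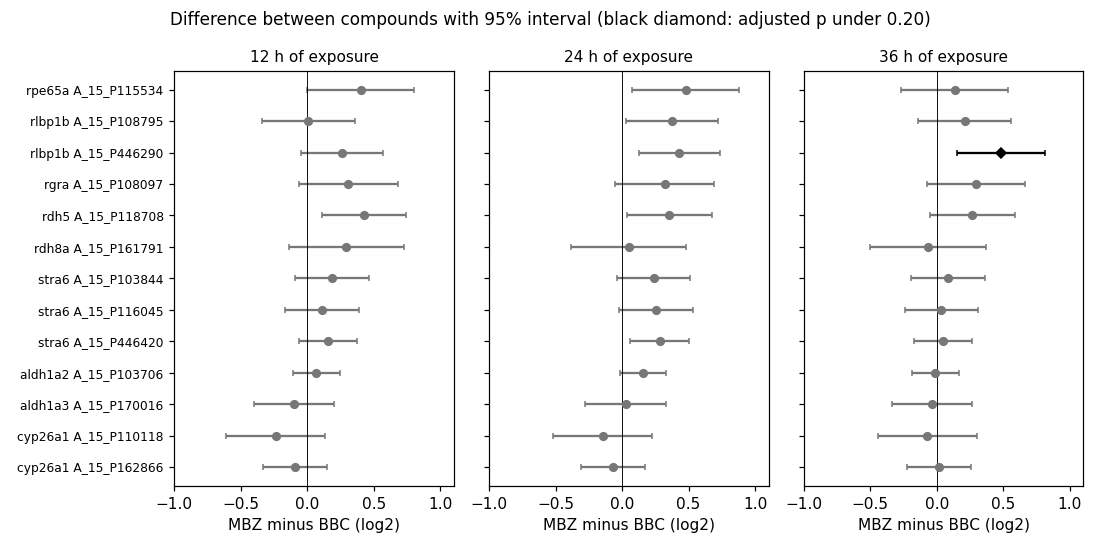
Log2 difference between MBZ and BBC eyes (x axis) for the 13 probes (rows) after 12, 24, and 36 h of exposure, with the 95% interval from limma over 24 arrays. Only the black diamond, *rlbp1b* A_15_P446290 at 36 h, passed an adjusted p of 0.2. The intervals of the retinoic acid enzymes at 36 h lie around 0.

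The gene *rlbp1b* encodes a cellular retinaldehyde-binding protein, the carrier of 11-cis retinoids, which zebrafish Müller glia express. At 36 h its probe A_15_P446290 read 3.07, 3.25 and 2.85 in MBZ eyes (replicates 1, 2 and 4), against 2.81, 2.73, 2.60 and 2.15 in BBC eyes. Every MBZ value exceeded every BBC value, the closest being 2.85 and 2.81. Groups of 3 and 4 arrays separate more easily than groups of 4 and 4. The share of all probes separated in this way was not computed. The level averaged 3.06 ± 0.20 in MBZ eyes (SD, n = 3) and 2.57 ± 0.29 in BBC eyes (SD, n = 4). The difference was 0.48 on the log2 scale, or 1.40-fold (SE 0.16, 95% interval 0.15 to 0.81, adjusted p = 0.156 by limma). The call ended without MBZ replicate 1 (adjusted p = 0.237), 2 (0.369) or 3 (0.237), and without BBC replicate 2 (0.204) or 4 (0.357). The probe has no value in MBZ replicate 3, so leaving that array out did not change its difference. Its adjusted p moved only through the fit of other probes. The call also ended with only the 8 arrays of 36 h (adjusted p = 0.488), without the filter on dim probes (0.220) and in the authors' normalized values (0.269).

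The same *rlbp1b* probe read 2.02, 2.06, 1.89 and 2.06 in MBZ eyes at 12 h, against 1.62, 1.67, 1.82 and 1.87 in BBC eyes. Here too the groups did not overlap, and their exact two-sided permutation p of 0.0286 is the smallest that 4 arrays against 4 can give. The limma difference of 0.26 (95% interval -0.04 to 0.57) was not called. At 24 h it read 2.07, 1.98, 1.83 and 1.74 in MBZ eyes, against 1.37, 1.80, 1.63 and 1.09 in BBC eyes. The highest BBC array lay above the lowest MBZ array, and the difference of 0.43 (95% interval 0.13 to 0.74) was not called, at an adjusted p of 0.746 by limma. The leading probe of *rlbp1b*, A_15_P108795, had a smaller difference at each time, though the probes were not tested against each other. Its values at 36 h were 5.0, 4.97, 4.89 and 4.71 in MBZ eyes, against 4.80, 4.82, 4.85 and 4.25 in BBC eyes. The groups overlapped, and BBC replicate 4 stood apart from the other BBC arrays. Its differences were 0.01, 0.37 and 0.21 at 12, 24, and 36 h, none of them called, and that at 36 h was 0.07 without BBC replicate 4. The mean of both *rlbp1b* probes differed by 0.35 at 36 h, with an adjusted p of 0.348 by limma.

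Of the Müller glia markers, 2 of 10 genes rose in MBZ eyes at 36 h by their leading probe and none fell, beside 5.62% of all probes called at that time. These were *glula*, a glutamine synthetase (0.51, adjusted p = 0.0691 by limma), and *vim*, an intermediate filament protein (0.40, adjusted p = 0.0737). Their summed level, in units of each array's 75th percentile, ranged from 280 to 352 in MBZ eyes and from 261 to 326 in BBC eyes at 36 h. Of the RPE and pigment cell markers 1 of 12 rose, a share close to that of all probes. It was *slc45a2*, a transporter of melanosomes (0.37, adjusted p = 0.0819), and their sum ranged from 206 to 263 in MBZ eyes and from 179 to 283 in BBC eyes. In the lens list 6 of 15 genes fell and none rose, with sums from 466 to 643 in MBZ eyes and from 697 to 983 in BBC eyes. The summed levels of the lens list thus did not overlap, whereas those of the glial and pigment lists did. As sums of unlogged levels they are led by the brightest probes. By leading probe, 9 of 10 Müller glia markers (median 0.15) and 7 of 12 pigment markers (median 0.02) were higher in MBZ eyes. For the lens list this held for 0 of 15 (median -0.63). All Müller glia markers with a probe were well above background on all arrays, and *mitfb* of the pigment list on 9 of 24. No photoreceptor or skeletal muscle marker was called at 36 h, with 1 of 21 (median -0.16) and 1 of 13 (median -0.28) higher in MBZ eyes. At 24 h no marker was called, but all 15 lens markers (median 0.20) and 1 of 8 red blood cell markers (median -0.33) were higher in MBZ eyes. At 12 h all 13 skeletal muscle markers were higher in MBZ eyes, again without a call (median 0.68). This was not alike on the slides of that time. The muscle sums cover 10 of the 13 genes, those with a value on every array. In replicates 1 and 2 these sums were 17.3 and 44.4 in MBZ eyes, against 7.58 and 8.12 in BBC eyes. In replicates 3 and 4 they were lower in MBZ eyes, 18.3 and 18.3 against 23.0 and 23.8. The part of these cell types in the *rlbp1b* and other differences was not tested.

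The gene *rdh5* encodes the RPE dehydrogenase that oxidizes 11-cis retinol to 11-cis retinal. At 12 h it read -0.13, -0.41, -0.37 and -0.06 in MBZ eyes, against -0.80, -0.85, -0.53 and -0.48 in BBC eyes. No MBZ array fell within the range of BBC, which gave an exact two-sided permutation p of 0.0286. The difference of 0.42 (SE 0.15, 95% interval 0.11 to 0.74) was the largest of any member at 12 h, but its adjusted p was 0.798 by limma. Groups in which all 4 MBZ arrays lay above all 4 BBC arrays occurred for 2 of the 13 members at 12 h, beside 2.49% of the probes with 8 values. At 24 h they occurred for none of the members, beside 1.68%. At 36 h no member with 8 values had such groups, beside 2.78%. Of the 39 exact tests, the 2 at 12 h were the only ones with a p under 0.05, and a comparison of 3 arrays with 4 cannot go below 0.0571. At 24 and 36 h the *rdh5* groups overlapped, with differences of 0.36 (95% interval 0.04 to 0.67) and 0.27 (95% interval -0.05 to 0.59).

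The isomerohydrolase *rpe65a*, which makes 11-cis retinol from retinyl esters, showed the largest difference of a member at 24 h. It read 5.06, 5.11, 4.97 and 4.96 in MBZ eyes at that time, against 4.19, 4.71, 5.12 and 4.17 in BBC eyes. The MBZ arrays lay close together, and 1 BBC array lay above them. The differences were 0.40, 0.48 and 0.13 at 12, 24, and 36 h, the interval at 24 h running from 0.08 to 0.88, with an adjusted p of 0.973 by limma. The opsin *rgra*, a retinal G protein-coupled receptor of the RPE and Müller glia that isomerizes retinal, differed by 0.31, 0.32 and 0.29, and its groups overlapped at each time. At 36 h it read 0.75, 1.11, 0.99 and 0.80 in MBZ eyes, against 0.50, 0.41, 1.26 and 0.30 in BBC eyes. BBC replicate 3, the highest of the 4, was also the array with the most uneven spots. Without it the differences of *rgra* (0.51, adjusted p = 0.0838 by limma) and *rdh5* (0.41, adjusted p = 0.145) passed the threshold. Without BBC replicate 4, the lowest, they were 0.19 for *rgra* (adjusted p = 0.743) and 0.14 for *rdh5* (adjusted p = 0.768).

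For the other genes, the largest difference of each was smaller than the largest of the genes above. For *rdh8a*, the photoreceptor dehydrogenase that reduces all-trans retinal, the differences were 0.29, 0.05 and -0.07 at 12, 24, and 36 h, the interval at 36 h running from -0.50 to 0.37. The 3 probes of *stra6*, the cell surface receptor for the retinol-binding protein, differed by 0.11 to 0.18 at 12 h, 0.24 to 0.28 at 24 h and 0.03 to 0.08 at 36 h. Among the retinoic acid enzymes, the synthetic aldehyde dehydrogenase *aldh1a2* differed by 0.07, 0.16 and -0.01, and its interval at 36 h lay between -0.18 and 0.16. Its relative *aldh1a3* differed by -0.10, 0.03 and -0.04. The cytochrome P450 *cyp26a1*, which breaks retinoic acid down, differed by -0.24, -0.15 and -0.07 in its leading probe A_15_P110118, and by -0.09, -0.07 and 0.02 in A_15_P162866. The 95% intervals of these 8 probes held differences of up to 0.73 in size at 12 h and 0.53 at 24 h, so they bound the effect without showing that the compounds act alike.

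The arrays of 1 slide hold replicates 1 and 2 or replicates 3 and 4 of both compounds, which gives a comparison within each slide. Probes of 1 gene are again counted separately. The share of all probes higher in MBZ on each slide, and their median, were not computed. A shift of the arrays of a slide as a whole therefore cannot be told apart from one of the members. At 12 h, 12 of 13 members were higher in MBZ on the slide of replicates 1 and 2, with a median difference of 0.25. On the slide of replicates 3 and 4 this held for 7 of 13, with a median of 0.05. For *rpe65a* these differences were 0.72 and 0.09. At 24 h, 11 and 10 of 13 members were higher in MBZ, with medians of 0.32 and 0.17, and at 36 h 11 and 6 of 13, with medians of 0.16 and -0.02. The median was higher on the slide of replicates 1 and 2 at each time, but not every member followed it. For *rlbp1b* A_15_P446290 at 36 h the differences were 0.39 and 0.48, and for *rdh5* 0.21 and 0.33.

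Whether the MBZ effect itself differed between exposure times was tested in the same fit. No member passed for 24 h minus 12 h, where 0% of all probes did. None passed for 36 h minus 12 h, beside 0.362%, or for 36 h minus 24 h, beside 0.0635%. At an unadjusted p under 0.05 there was likewise no member in these 3 tests, beside 2.12%, 8.40% and 5.55% of all probes. The largest of these changes among the members were those of *rlbp1b* A_15_P108795 from 12 to 24 h (0.37, 95% interval -0.12 to 0.86) and of *rdh8a* from 12 to 36 h (-0.36, 95% interval -0.97 to 0.25).

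The course over age was then compared within each compound, on separate arrays, at an adjusted p under 0.05. Between 60 and 72 hpf, 12 of the 13 members changed in MBZ eyes, 7 up and 5 down, where 72.8% of all probes changed. In BBC eyes 12 also changed, 7 up and 5 down, beside 73.5%. Between 72 and 84 hpf 9 changed in MBZ eyes, 8 up and 1 down, beside 61.1%, and 8 in BBC eyes, 7 up and 1 down, beside 57.2%. The ages of 60 and 84 hpf were compared after the data had been seen: 11 members changed in MBZ eyes, 9 up and 2 down, beside 64.4% of all probes, and 12 in BBC eyes, 9 up and 3 down, beside 66.7%. A majority of the tested probes thus changed with age, so that being called was common. The median of all probes was 0.19 in MBZ eyes and 0.20 in BBC eyes from 60 to 72 hpf, and -0.14 in MBZ eyes and -0.13 in BBC eyes from 72 to 84 hpf. Quantile normalization moved these medians by -0.16, -0.18, 0.15 and 0.14, and steps of the members are to be read beside them. The median change from 60 to 84 hpf was 1.04 for the members in MBZ eyes and 0.82 in BBC eyes, beside 0.01 and 0.03 for all probes.

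The rise of *rpe65a* was the largest of any member. At 60 hpf it read 3.09, 3.03, 2.89 and 3.20 in MBZ eyes, against 2.42, 2.26, 2.83 and 3.09 in BBC eyes. At 84 hpf it read 6.10, 6.17, 6.10 and 5.78 in MBZ eyes, against 6.08, 5.86, 6.16 and 5.52 in BBC eyes. Every array of 84 hpf lay above every array of 72 hpf, and those above every array of 60 hpf. The level at 84 hpf was 7.91-fold that at 60 hpf in MBZ eyes (log2 2.98, SE 0.19) and 9.52-fold in BBC eyes (log2 3.25, SE 0.19). Each step was called in both compounds.

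The level of *rgra* was 5.15-fold higher at 84 than at 60 hpf in MBZ eyes and 5.20-fold higher in BBC eyes. Its group means in MBZ eyes were -1.45, -0.65 and 0.91 at 60, 72, and 84 hpf, and those in BBC eyes -1.76, -0.97 and 0.62. The second step (1.56 in MBZ eyes, 1.58 in BBC eyes) was larger than the first (0.80 and 0.79). For *rdh8a* the level was 3.50-fold higher in MBZ eyes and 4.49-fold higher in BBC eyes, with both steps called in each compound.

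The gene *rdh5* did not climb at each age. In MBZ eyes it read -0.86, -1.06, -0.75 and -0.84 at 72 hpf, below every MBZ array of 60 hpf, and 1.32, 1.69, 1.83 and 1.53 at 84 hpf. In BBC eyes it read -1.38, -1.05, -1.05 and -1.46 at 72 hpf, below every BBC array of 60 hpf, and 1.37, 1.23, 1.76 and 0.94 at 84 hpf. It fell by 0.64 in MBZ eyes (SE 0.15, adjusted p = 0.000884 by limma) and by 0.57 in BBC eyes (SE 0.15, adjusted p = 0.00236) between 60 and 72 hpf. Between 72 and 84 hpf it rose 5.53-fold in MBZ eyes and 5.88-fold in BBC eyes, the largest step of any member.

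The retinoic acid enzymes had their highest means at 60 hpf. The gene *aldh1a3*, whose enzyme makes retinoic acid in the ventral retina, read -0.50, -0.48, -0.60 and -0.40 in MBZ eyes and -0.46, -0.52, -0.29 and -0.30 in BBC eyes at that age. At 72 hpf it read -2.22, -2.29, -2.38 and -1.86 in MBZ eyes and -2.17, -2.28, -2.44 and -1.96 in BBC eyes, and no array of 72 hpf came near those of 60 hpf. At 84 hpf it read -1.37, -2.03, -1.50 and -1.52 in MBZ eyes and -1.91, -1.55, -1.53 and -1.30 in BBC eyes. It was 3.24-fold lower at 72 than at 60 hpf in MBZ eyes and 3.53-fold lower in BBC eyes. A part of this came back by 84 hpf, when it was 2.16-fold lower than at 60 hpf in MBZ eyes and 2.26-fold lower in BBC eyes.

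The dorsal enzyme *aldh1a2* had the same form on a smaller scale. It fell by 0.39 in MBZ eyes and by 0.48 in BBC eyes between 60 and 72 hpf, and rose by 0.25 in MBZ eyes and 0.42 in BBC eyes by 84 hpf, each step called. Its levels at 84 and 60 hpf differed by -0.14 in MBZ eyes (95% interval -0.31 to 0.03) and by -0.06 in BBC eyes (95% interval -0.23 to 0.11), with the sign turned in both by normexp and in BBC eyes also by quantile normalization and in the authors' values. Without MBZ replicate 4 at 12 h the *aldh1a2* difference in MBZ eyes was called (-0.21, adjusted p = 0.0341 by limma). For *cyp26a1*, A_15_P162866 fell by 0.85 in MBZ eyes and by 0.88 in BBC eyes between 60 and 72 hpf, and by 0.53 in MBZ eyes and 0.63 in BBC eyes between 60 and 84 hpf. Its leading probe fell by 0.48 in MBZ eyes and by 0.58 in BBC eyes at the first step, and the MBZ call ended without MBZ replicate 2 at 12 h (difference -0.28, adjusted p = 0.117 by limma) or replicate 4 at 24 h (adjusted p = 0.0527). Between 60 and 84 hpf the leading probe differed by -0.24 in MBZ eyes (adjusted p = 0.244 by limma), and by -0.46 without MBZ replicate 4 at 12 h (adjusted p = 0.0132). In BBC eyes the leading probe differed by -0.41 (adjusted p = 0.0496 by limma). Leaving out any 1 of the 8 BBC arrays of these ages ended this BBC call (adjusted p from 0.0519 to 0.111). It also ended after quantile normalization (-0.31, adjusted p = 0.125), with normexp (-0.22, adjusted p = 0.323) and in the authors' values (-0.31, adjusted p = 0.125). The same held without the filter on dim probes (adjusted p = 0.0697) and with the slide as a block (adjusted p = 0.0714).

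Probes of a single gene did not always follow the same course. The 2 probes of *rlbp1b* rose alike between 60 and 84 hpf, by 1.21 and 1.05 in MBZ eyes and by 1.01 and 0.82 in BBC eyes. The sizes of their steps differed. A_15_P108795 rose by 1.07 in MBZ eyes and 0.71 in BBC eyes between 60 and 72 hpf, where A_15_P446290 differed by -0.10 and -0.27, and in BBC eyes was called as a fall without BBC replicate 2 at 24 h (-0.38, adjusted p = 0.0271 by limma). Between 72 and 84 hpf A_15_P108795 differed by 0.13 in MBZ eyes and 0.30 in BBC eyes, and A_15_P446290 rose 2.22-fold in MBZ eyes and 2.14-fold in BBC eyes. This step of *rlbp1b* A_15_P108795 was called as a rise in BBC eyes after quantile normalization (0.50, adjusted p = 0.0162 by limma), with normexp (0.55, adjusted p = 0.0231), in the authors' values (0.50, adjusted p = 0.0146) and without BBC replicate 4 at 36 h (0.44, adjusted p = 0.0279), and in MBZ eyes with normexp (0.51, adjusted p = 0.0312). Of *stra6*, A_15_P446420 rose by 1.65 in MBZ eyes and 1.52 in BBC eyes to 72 hpf and then fell by 0.60 and 0.36. The later fall in BBC eyes was not called after quantile normalization (-0.21, adjusted p = 0.121 by limma), with normexp (-0.16, adjusted p = 0.267) or in the authors' values (-0.19, adjusted p = 0.161). The other *stra6* probes rose by 0.60 and 0.65 in MBZ eyes and by 0.54 and 0.50 in BBC eyes at the first step, and by no called amount at the second. There A_15_P103844 was called as a rise in BBC eyes under the same 3 settings (0.37, 0.31 and 0.38, adjusted p = 0.0304, 0.0472 and 0.0260 by limma), and A_15_P116045 without BBC replicate 2 at 24 h (0.36, adjusted p = 0.0250). Over all 5123 pairs of tested probes that share a gene name, the median absolute difference between the probes in the 72 against 60 hpf comparison was 0.58 in MBZ eyes and 0.55 in BBC eyes, and in the 84 against 60 hpf comparison 0.34 in both. The disagreement of 1.18 between the *rlbp1b* probes at 72 hpf in MBZ eyes is above that median. Which transcripts the probes detect was not tested.

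**Figure D3:**
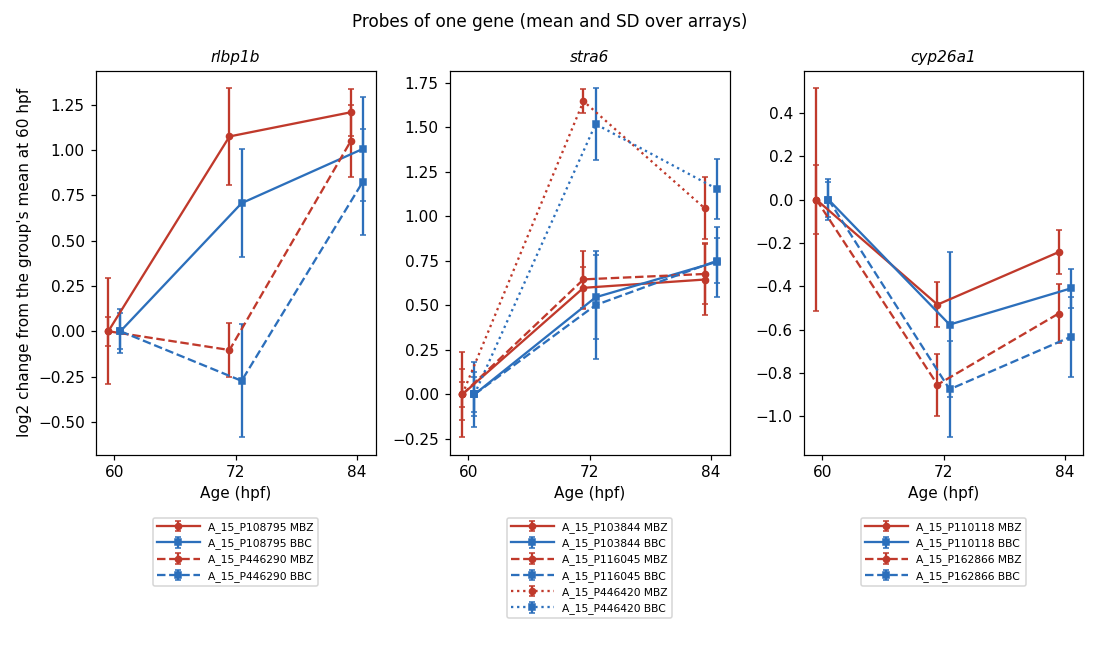
Log2 change of each probe from the mean of its own group at 60 hpf (y axis) against age in hpf (x axis) for the genes with several probes, in MBZ (red circles) and BBC (blue squares) eyes. Points are means over the arrays of a group with SD, and line styles mark the probes. At 72 hpf *rlbp1b* A_15_P108795 had risen and A_15_P446290 had not, in both compounds, while *stra6* A_15_P446420 was highest at 72 hpf.

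The other genes of these pathways were taken from fixed lists. Of 39 further visual cycle and retinoid transport genes, 20 had a tested probe, and none was called between compounds at any time by its leading probe. At 36 h the second probe of *rgrb*, A_15_P114295, was higher in MBZ (0.65, adjusted p = 0.0548 by limma), while its leading probe differed by -0.12. Between 60 and 84 hpf, 14 of the 20 rose and 2 fell in MBZ eyes, and 13 rose and 4 fell in BBC eyes, beside 64.4% and 66.7% of all probes changed in either direction. The largest rises were those of *rdh8b*, a paralog of *rdh8a* (2.52 in MBZ eyes, 2.63 in BBC eyes), and *abca4a*, the photoreceptor flippase for retinal conjugates (2.14 and 2.68).

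Of the other retinoic acid enzymes, binding proteins and receptors, 14 genes were tested and none was called between compounds. Between 60 and 84 hpf 3 rose and 7 fell in each compound, a share of changed genes close to those 64.4% and 66.7%. The falls included *cyp1b1*, a P450 that can make retinoic acid (-1.39 in MBZ eyes, -1.23 in BBC eyes), *crabp2a*, a cellular retinoic acid-binding protein (-1.13 and -1.08), and *cyp26c1*, a relative of *cyp26a1* (-0.82 and -1.02). Of 7 receptor genes tested, *raraa* (0.99 in MBZ eyes, 1.19 in BBC eyes) and *rxrgb* (1.15 and 1.25) rose and *rxrba* fell (-0.87 and -0.99) in both compounds, *rxrbb* fell in MBZ eyes (-0.58, and -0.28 without a call in BBC eyes), and the other 3 were not called. In the list of dorsal and ventral retina genes, 1 of 8 tested was called between compounds at 36 h, beside 5.62% of all probes. It was *tbx2a*, a transcription factor of the dorsal retina, lower in MBZ eyes by its leading probe (-0.29, adjusted p = 0.186 by limma). A probe of its paralog *tbx2b*, A_15_P141716, was lower as well (-0.24, adjusted p = 0.134), whereas the leading probe of *tbx2b* differed by 0.05.

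Markers of the cells that carry the visual cycle were followed over the same ages. Calls among them between 60 and 84 hpf stand beside 64.4% of all probes in MBZ eyes and 66.7% in BBC eyes. All 21 photoreceptor markers tested rose between 60 and 84 hpf in both compounds, and their median change was 4.14 in MBZ eyes and 4.58 in BBC eyes. Their summed level ranged from 55.5 to 63.5, 123 to 152 and 218 to 372 in MBZ eyes at 60, 72, and 84 hpf, and from 41.3 to 64.5, 124 to 181 and 247 to 415 in BBC eyes. Of 12 RPE and pigment cell markers 7 rose and 1 fell in each compound, a share of changed genes close to that of all probes. Their sums ranged from 187 to 212, 203 to 262 and 206 to 263 in MBZ eyes and from 177 to 192, 207 to 268 and 179 to 283 in BBC eyes. Of 10 Müller glia markers, 3 rose and 2 fell in MBZ eyes, and 2 rose and 3 fell in BBC eyes, shares below those of all probes. The Müller glia sums were highest at 72 hpf. They ranged from 285 to 320, 387 to 431 and 280 to 352 in MBZ eyes at 60, 72, and 84 hpf. In BBC eyes they ranged from 295 to 318, 360 to 445 and 261 to 326. Between 60 and 72 hpf, however, only 5 of these 10 genes were higher in each compound. Their median change, 0.19 in MBZ eyes and 0.17 in BBC eyes, was near the 0.19 and 0.20 of all probes. Outside these cell types, 12 of 13 skeletal muscle markers rose in MBZ eyes and 13 in BBC eyes (medians 2.08 and 2.93). In each compound 6 of 8 red blood cell markers fell (medians -1.47 and -1.44). The gene *cahz* stands in the Müller glia list and in the red blood cell list, and is counted in both. The photoreceptor sums thus separated all ages and the pigment sums did not. The part of these cell types in the rise of the members was not tested.

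The genes most like each member were read from Pearson's r over the 24 arrays among 11974 named probes, as a description, since the arrays share ages and scan days. The highest were *arl4d* for *rpe65a* (0.990), *inpp5ka* for *rgra* (0.989), *bzw2* for *rdh5* (0.989), *mab21l3* for *rdh8a* (0.986) and *xrcc6* for *aldh1a3* (0.982). They were *pttg1ipb* for *rlbp1b* (0.953), *ndrg4* for *stra6* (0.928), *rhocb* for *aldh1a2* (0.912) and *pou2f1a* for *cyp26a1* (0.878). The next were *cntn1b* for *rpe65a* (0.989), *zgc:64022* for *rgra* (0.979), *inpp5ka* for *rdh5* (0.982), *gnb5b* for *rdh8a* (0.985) and *med24* for *aldh1a3* (0.982), and for the other members *pm20d1.2* for *rlbp1b* (0.944), *selenou1b* for *stra6* (0.925), *as3mt* for *aldh1a2* (0.906) and *metrn* for *cyp26a1* (0.868).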

How the data were processed

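Total RNA of pooled eyes was labelled with Cy3 and hybridized by the authors to 24 arrays of 1 colour. The authors extracted them with Agilent Feature Extraction 8.0, per the submitters' processing notes, and the deposited scanner output holds intensities, not normalized between arrays. The authors also deposited log2 values, normalized with Agi4x44PreProcess, which were used as an alternative. From the intensities, each background-corrected signal was divided by its array's 75th percentile over probe spots and put on the log2 scale. Uneven spots were left out, and spots of 1 probe were averaged. Probes had to be positive and well above background in every replicate of some condition, which 31507 of 43603 were.

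All 24 arrays entered 1 fit with 6 conditions and 18 residual degrees of freedom in limma 3.58.1 (R 4.3.3, with version 1.17.8 of data.table), with Benjamini-Hochberg adjustment over all tested probes. The threshold was 0.2 between compounds and 0.05 between ages. Single probes were also compared by two-sided exact permutation tests. The median standard error of a difference between compounds was 0.14, and precision is limited by the number of arrays. As the labels do not say how the pools of a group were made, p-values measure the spread between these pools. The fit was tested on simulated data with known changes between compounds at 36 h. At an adjusted p under 0.2 it recovered 28 of 50 changes of 0.5 on the log2 scale. It recovered 42 of 50 changes of 1, 43 of 50 of -1 and 48 of 50 of 2. The other probes of the 30173 simulated were left unchanged, with independent noise. In the data 1770 probes were called at 36 h, and 101 each at 12 and 24 h, so recovery there can differ. The differences of the members between compounds were all smaller than 0.5 in size. The alternatives were other normalizations, filters, thresholds, tests and blocks, the mean over probes and leaving out each array. The rank product used 16 pairs and 100 permutations. It was first permuted within pairs, and permutation within arrays was chosen after the counts of the first had been seen. Both are given.

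All members and every probe of them are named. Of the other lists, genes called between compounds are named, except those of the lens list, and those named over age were chosen after their values were seen. The members and lists were chosen with earlier results of these data known. Gene names were matched by accession to RefSeq annotation of GRCz12tu, which named 15163 probes. No sequences or positions are given. Some entries of the visual cycle list are not reported here and were left out of its counts.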

Additional observations from a re-analysis of the deposited data

Results flagged for a closer look

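Of 77 groups of 4 values (13 probes in 6 conditions, without the group of 3), 4 held an array far from the others, about as many as the 1 in 20 that chance flags. The second *stra6* probe, A_15_P116045, read -0.81 in BBC replicate 3 at 12 h, with the other 3 between -1.18 and -1.16. The *aldh1a2* probe read 2.27 in BBC replicate 3 at 24 h, with the others between 2.04 and 2.08. The leading *rlbp1b* probe read 4.25 in BBC replicate 4 at 36 h, with the others between 4.80 and 4.85. The *cyp26a1* probe A_15_P162866 read 0.64 in MBZ replicate 2 at 24 h, with the others between 0.90 and 0.95.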

How the results depend on the processing

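Between compounds, the rank product with ranks permuted within pairs, chosen first and replaced after its counts were seen, called 6 members at 12 h, 8 at 24 h and 2 at 36 h, beside 25.9%, 24.3% and 28.7% of all probes with 8 values. No other alternative run called a member at 12 or 24 h. At 36 h the count of members called, 1 in the report, was 2 with normexp on the median pixel signal, which added *rgra*. It was 0 with the authors' normalized values, no filter, 4 flags on all arrays, only 8 arrays, an adjusted p under 0.05 and the rank product permuted within arrays, and 0 to 3 when an array was left out. The 4 flags and the rank product could not include the *rlbp1b* probe A_15_P446290 because of its uneven spot. With no filter, only 8 arrays or the stricter threshold its difference was unchanged at 0.48. Its adjusted p by limma was then 0.220, 0.488 and 0.156. In the authors' values its difference was 0.37 (adjusted p = 0.269 by limma), and the cause was not tested. The difference of this probe stayed positive throughout. It ran from 0.37 to 0.56 over the alternatives that measured the probe by itself, and from 0.35 to 0.59 when an array was left out. The mean of both *rlbp1b* probes differed by 0.35. The labels number the pools of each group without saying that a number pairs them. Deviations of same-numbered MBZ and BBC arrays from their group means correlated at 0.03 to 0.13 at 12 h, 0.15 to 0.43 at 24 h and -0.02 to 0.37 at 36 h, over 0.1 in every pair at 24 h only. Same-numbered arrays of an exposure time also share a slide, so a pairing of pools cannot be told apart from the slide here. With the replicate number as a block, 1 member was called at 36 h (adjusted p = 0.0888 by limma), and with the block within exposure time the same probe (0.0868). The block changed no other call between compounds. Over age it ended that of the leading *cyp26a1* probe between 60 and 84 hpf in BBC eyes (adjusted p = 0.0518). Signs of small differences that were not called changed in 33 of 776 recalculations between compounds. Over all probes, the count called at 36 h was 1770, and 636 without MBZ replicate 3, 3634 without MBZ replicate 4, 141 with only 8 arrays and 3710 with the block within exposure time. The counts of members changed between ages stayed within 1.5 times under each alternative.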
